A study of Mus musculus with 11 samples.

Results

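The genes of fatty acid and cholesterol synthesis were examined across 5 types of mouse mammary epithelial cells profiled by RNA-seq. The set comprised 37 genes chosen for their function, with earlier results of these data known, of 27179 genes counted in each library. Of these, 15 belong to the fatty acid branch, 7 to the triglyceride branch, 11 to the sterol branch and 4 are regulators of sterol sensing. All 37 were found in the count tables, and 36 passed the filter on low counts (over 0.5 CPM, the read count scaled to library size, in at least 3 libraries). The remaining gene, *Fabp3*, which encodes a fatty acid carrier of heart and lactating mammary cells, lay between 0.17 and 0.86 CPM in all 11 libraries and was not tested.

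The study profiled freshly sorted MaSC/basal cells (CD24+CD29hi, a fraction enriched for mammary stem cells that also holds myoepithelial cells), luminal progenitor-enriched cells (LP, CD24+CD29loCD61+) and mature luminal-enriched cells (ML, CD24+CD29loCD61-), with 3 libraries each. These cells came from wild type FVB/N virgin females of 8 weeks, with no transgene or treatment in the labels. A single library represented mammospheres, which are floating colonies grown from MaSC/basal cells of the same strain, age and genotype for 1 week, and a single library represented Comma Dβ (CommaD-βGeo), a mouse mammary cell line that the labels give as wild type and as derived from Balb/c mice at mid-pregnancy. The Comma Dβ library thus differs from the sorted cells in strain, donor stage and culture, and these cannot be told apart. Nothing in the labels states whether replicates of a population came from separate mice, so p-values measure the spread between these libraries.

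Fatty acids are built in the cytosol from acetyl-CoA, which ATP citrate lyase releases from citrate. Acetyl-CoA carboxylase and fatty acid synthase extend it to palmitate, elongases (Elovl) lengthen the chain, and desaturases (Scd, Fads) insert double bonds before glycerol-linked enzymes (Gpam, Lpin, Dgat) store the product as triglyceride. Cholesterol is made from the same precursor along the mevalonate route, from *Hmgcs1* to *Dhcr7*. SREBP factors, encoded by *Srebf1* and *Srebf2*, switch on both routes when sterols are scarce, and Insig proteins hold them back. In the mammary gland both routes are known for supplying milk fat, although the glands profiled here were from virgin animals.

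The sequences before the start sites of 4 sterol enzymes are shown because all 11 enzymes of this branch had their highest level in the cell line (described further on) and because SREBP, NF-Y and Sp1 are textbook regulators of it. Each line gives the 150 bases before the RefSeq start site, 5′ to 3′ on the strand of the gene (GRCm38.p6, the build called mm10 by the authors). Capitals mark matches, on either strand, to a sterol regulatory element (SRE, TCACNCCAC), a CCAAT box (CCAAT) and a GC box (GGGCGG), and these motifs overlap in none of the 4 stretches. The *Hmgcs1* stretch lies at chr13:119690201-119690350 (+ strand), *Mvd* at chr8:122443423-122443572 (- strand), *Idi1* at chr13:8885456-8885605 (+ strand) and *Cyp51* at chr5:4104698-4104847 (- strand).
Hmgcs1: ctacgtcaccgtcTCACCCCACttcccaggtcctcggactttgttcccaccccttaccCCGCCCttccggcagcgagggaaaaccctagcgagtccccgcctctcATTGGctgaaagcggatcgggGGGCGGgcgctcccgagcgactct
Mvd: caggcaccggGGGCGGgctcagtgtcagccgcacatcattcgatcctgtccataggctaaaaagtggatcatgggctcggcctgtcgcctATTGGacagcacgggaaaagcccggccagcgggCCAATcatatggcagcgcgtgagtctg
Idi1: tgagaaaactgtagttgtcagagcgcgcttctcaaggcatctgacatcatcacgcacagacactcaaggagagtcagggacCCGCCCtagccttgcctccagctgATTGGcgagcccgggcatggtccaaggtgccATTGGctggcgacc
Cyp51: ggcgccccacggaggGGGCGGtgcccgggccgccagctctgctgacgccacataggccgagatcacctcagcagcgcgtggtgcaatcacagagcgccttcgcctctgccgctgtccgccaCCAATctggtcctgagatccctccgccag

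In these stretches the SRE letters occur before *Hmgcs1* alone, beginning 137 bases before its start. Promoter windows of 300 bases, from 250 before to 50 after a start site, were at hand for 29 of the 37 genes, and for 27025 genes in all. The CCAAT letters were found in the windows of 8 of 8 sterol enzymes, 8 of 12 fatty acid genes, 3 of 5 triglyceride genes and 4 of 4 regulators, against 41.1% of all genes with a window and 42.5% of those that were also tested for expression. The GC box was found in 8 of 8, 6 of 12, 3 of 5 and 4 of 4, against 38.2% of all and 66.5% of the tested genes. A gene was counted if any of its windows held the letters, and the 29 genes had 38 windows. By window, 24 (63.2%) held CCAAT and 25 (65.8%) the GC box, against 37.3% and 60.1% of the windows of tested genes. An E-box (CACGTG) was found in 5 of the 29 genes (*Elovl5*, *Plin2*, *Sc5d*, *Dhcr7* and *Insig1*), against 8.09% of all and 11.3% of the tested genes. The SRE letters were found in 1 of 29, against 1.44% of all genes. These are matches of letters in a fixed window, and no binding was measured here.

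Each library held between 19958838 and 75795034 counted reads, so that 0.5 CPM corresponded to 9.36 reads in the shallowest library. Defining keratins followed the labels in the sorted cells, with *Krt5* at 2855 to 3445 CPM in MaSC/basal and 6.38 to 141 CPM in the luminal libraries, and *Krt18* at 79.0 to 140.0 CPM in MaSC/basal and 3065 to 3935 CPM in the luminal libraries. In Comma Dβ cells *Krt18* was at 45.3 CPM and *Krt8* at 16.4 CPM, below every sorted library. The labels place the libraries in 3 batches. Batch 1 held replicate 1 of each population and the mammospheres, batch 2 held MaSC/basal replicates 2 and 3 with LP and ML replicate 2, and batch 3 held LP and ML replicate 3 and Comma Dβ. Among the ML libraries, replicate 2 carried more of the LP markers (*Itgb3*, *Kit* and *Elf5* summed to 469 CPM, against 259.6 and 214 in replicates 1 and 3), and replicate 3 carried more of the basal markers (312 CPM, against 50.9 and 71.6). MaSC/basal replicate 1 was submitted under a name that contains p53, although the genotype given for it is wild type, which was followed here.

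The luminal cells had higher levels of *Me1*, *Scd1*, *Elovl7*, *Lpin1*, *Plin2* and *Srebf1* and a lower level of *Cyp51* than MaSC/basal cells. At a false discovery rate (FDR) under 0.05 in edgeR's quasi-likelihood test, with Benjamini-Hochberg adjustment over 15422 genes, 13 of 36 genes (36.1%) were higher in LP than in MaSC/basal cells and 5 (13.9%) were lower, where 28% and 29.4% of all genes passed in those directions. In ML cells 13 (36.1%) were higher and 2 (5.56%) were lower than in MaSC/basal cells, against 29.7% and 28.9% of all genes. LP cells exceeded ML cells in 10 genes (27.8%) and fell below them in 9 (25%), against 14.3% and 17.5% of all genes. The median log2 fold change of the 36 genes was 0.27, 0.33 and 0.10 in these comparisons, and that of all tested genes was 0.01, 0.01 and -0.01. LP and ML cells were set against the same 3 MaSC/basal libraries, so their first 2 lists of calls are not independent of each other. When the batch entered the fit as a replicate block, 18 genes were higher and 8 lower in LP, and 13 higher and 4 lower in ML, than in MaSC/basal cells. Without TMM scaling (the edgeR correction for differences in RNA composition), the split of LP against MaSC/basal cells became 11 higher and 8 lower. All 18, 15 and 19 called genes had the same sign in every pair of libraries from 1 batch. They were called from these same libraries, so this is no separate check. A lower level in a sorted fraction can reflect fewer cells of a type or less RNA per cell, and these cannot be told apart.

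**Figure D1:**
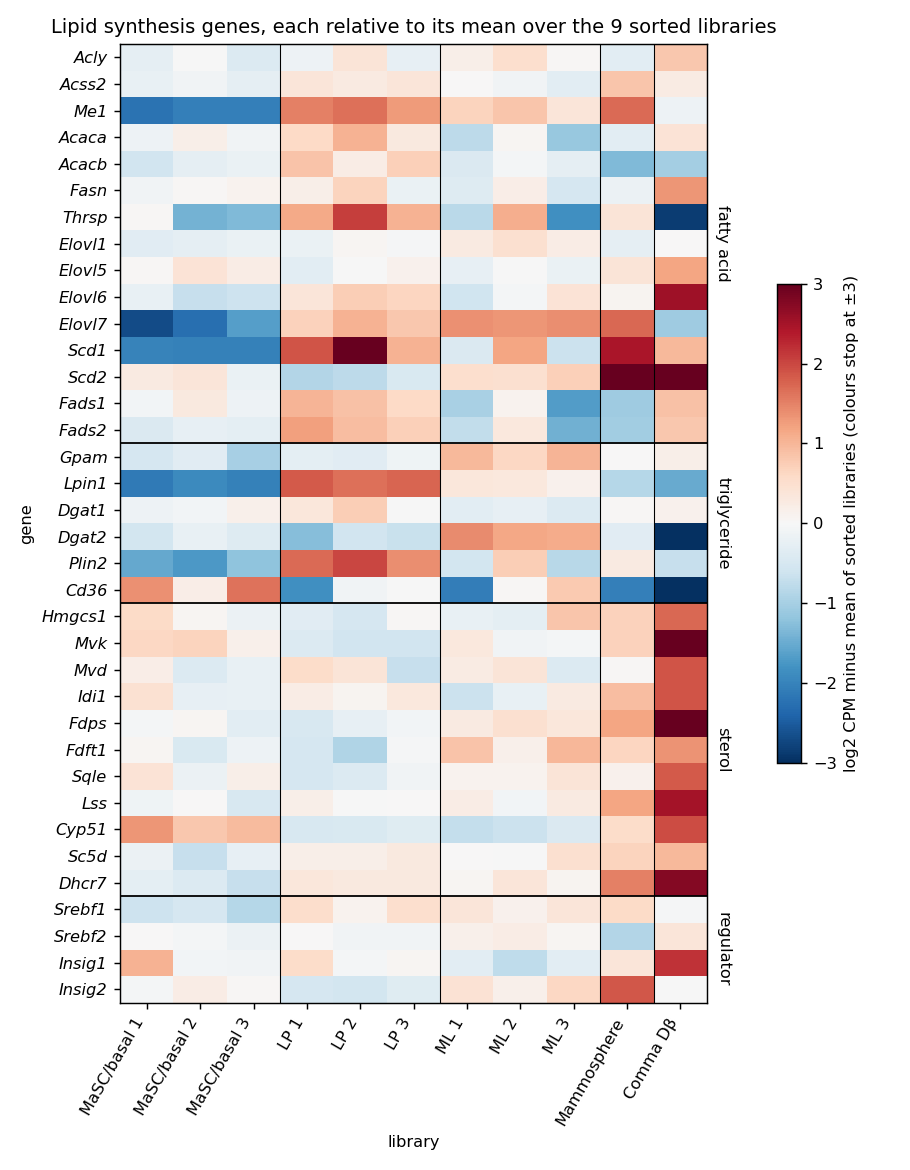
Heat map of the 36 tested genes (rows, grouped by branch) in the 11 libraries (columns). Colour gives log2 CPM minus the gene's mean over the 9 sorted libraries, red for higher and blue for lower, with colours stopping at 3 in either direction. *Me1*, *Scd1*, *Lpin1* and *Plin2* change from blue in MaSC/basal to red in LP cells, and the sterol rows are red throughout in Comma Dβ.

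The supply of precursors differed in *Me1*, the malic enzyme that yields NADPH for lipid synthesis. *Me1* was at 9.16, 10.3 and 10.4 CPM in MaSC/basal, at 123, 134 and 104 CPM in LP and at 68.6, 75.8 and 55.3 CPM in ML libraries. No library of 1 population overlapped another. The level was 12.1-fold higher in LP (log2 fold change 3.60 ± 0.17 SE, adjusted p = 2.10e-07) and 6.70-fold higher in ML cells (2.74 ± 0.16, adjusted p = 5.32e-07) than in MaSC/basal cells, and LP exceeded ML cells by 0.85 ± 0.15 (adjusted p = 0.00298). *Acly*, which encodes ATP citrate lyase, was a highly expressed gene without such a step, at 192 to 256 CPM in MaSC/basal, 217 to 334 CPM in LP and 263 to 362 CPM in ML libraries. Its differences did not pass the test (log2 fold change 0.24 ± 0.20 in LP and 0.46 ± 0.20 in ML), although ML passed with the replicate block (0.61, adjusted p = 0.0132). *Acss2*, which makes acetyl-CoA from acetate, was at 14.2 to 15.1 CPM in LP and 9.78 to 10.98 CPM in MaSC/basal libraries (0.53 ± 0.15, adjusted p = 0.0118), a call lost without TMM scaling (0.38, adjusted p = 0.0588). Its exons overlap those of *Ggt7* and *Gss* on the other strand, and the library kit does not mark strand.

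Of the 15 fatty acid genes, 8 were higher and 1 lower in LP than in MaSC/basal cells (median 0.81), 4 were higher and none lower in ML cells (median 0.41), and 7 were higher and 2 lower in LP than in ML cells (median 0.62). Over all genes 28% were higher and 29.4% lower in LP, and 29.7% higher and 28.9% lower in ML, than in MaSC/basal cells. Between LP and ML cells, 14.3% of all genes were higher and 17.5% lower in LP. *Fasn*, the fatty acid synthase, was at 336, 369 and 389 CPM in MaSC/basal, 406, 569.7 and 314 CPM in LP and 276, 417 and 256 CPM in ML libraries. The 3 ranges overlapped, and no difference passed the test (0.24 ± 0.25 in LP and -0.21 ± 0.25 in ML against MaSC/basal). With the replicate block *Fasn* passed in LP against MaSC/basal (0.43, adjusted p = 0.0343) and against ML cells (0.43, adjusted p = 0.0415). *Acaca*, the acetyl-CoA carboxylase of the cytosol, was at 93.7, 126 and 75.2 CPM in LP and 35.8, 63.8 and 28.2 CPM in ML libraries, higher in LP by 1.21 ± 0.29 (adjusted p = 0.0126). Against MaSC/basal (55.4, 69.6 and 57.2 CPM) its LP level was 0.70 ± 0.29 higher with adjusted p = 0.0618, and 0.96 with adjusted p = 0.00144 under the replicate block. *Acacb*, the isoform at mitochondria that restrains fatty acid burning, was at 12.1 to 18.8 CPM in LP, 6.94 to 8.93 CPM in MaSC/basal and 7.61 to 9.95 CPM in ML libraries. It was higher in LP than in both other populations (0.96 ± 0.21, adjusted p = 0.00293, and 0.86 ± 0.21, adjusted p = 0.0128), the latter call being lost without ML replicate 1 (adjusted p = 0.0516). *Thrsp* (Spot 14), known as a promoter of milk fat synthesis, was low, at 1.66 to 3.44 CPM in LP and 0.26 to 0.80 CPM in MaSC/basal libraries (2.36 ± 0.73, adjusted p = 0.0182). That call was lost without LP replicate 2 (1.93, adjusted p = 0.0663), MaSC/basal replicate 2 (2.10, adjusted p = 0.0665) or replicate 3 (2.12, adjusted p = 0.0636), and without MaSC/basal replicate 1 the value was 3.08.

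*Elovl7*, a fatty acid elongase, was higher in both luminal populations. It was at 4.11, 5.58 and 8.50 CPM in MaSC/basal, 43.0, 55.0 and 47.1 CPM in LP and 69.1, 67.1 and 70.6 CPM in ML libraries. It was 7.99-fold higher in LP (3.00 ± 0.24, adjusted p = 4.36e-06) and 11.4-fold higher in ML (3.51 ± 0.25, adjusted p = 1.59e-06) than in MaSC/basal cells. *Elovl6*, which extends palmitate to stearate, was at 26.8, 19.4 and 20.4 CPM in MaSC/basal and 40.4, 52.2 and 48.7 CPM in LP libraries, 2.12-fold higher in LP (1.08 ± 0.24, adjusted p = 0.00324). Its ML libraries (20.6, 29.97 and 41.5 CPM) overlapped both other populations, and the difference of LP from ML cells (0.62 ± 0.24, adjusted p = 0.0736) passed with the replicate block (0.66, adjusted p = 0.0489), by DESeq2 (adjusted p = 0.0424) and by voom (adjusted p = 0.0437). *Elovl1*, which makes very long saturated chains, was at 87.5 to 105 CPM in ML against 59.0 to 65.4 CPM in MaSC/basal libraries (0.61 ± 0.12, adjusted p = 0.00174). Its last exons share 53 bases with *Cdc20* on the other strand. *Elovl5*, which acts on polyunsaturated chains, ranged from 45.2 to 75.4 CPM over the 9 sorted libraries and passed no test in the fit used throughout. Its difference of ML from MaSC/basal cells (-0.38 ± 0.15, adjusted p = 0.0548) passed with the replicate block (-0.36, adjusted p = 0.0397), by DESeq2 (adjusted p = 0.0370), with the size factors of DESeq2 (adjusted p = 0.0425) and in the 9 sorted libraries alone (adjusted p = 0.0335).

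The 2 main stearoyl-CoA desaturases, which make oleate-type fatty acids, went opposite ways in LP cells. *Scd1* was at 81.0, 78.8 and 79.3 CPM in MaSC/basal, 1191, 2638 and 671 CPM in LP and 241, 732 and 208 CPM in ML libraries. Its MaSC/basal libraries were nearly level and lay below every luminal library, whereas the LP and ML ranges overlapped through ML replicate 2. The level was 18.8-fold higher in LP (4.23 ± 0.62, adjusted p = 0.000221) and 4.94-fold higher in ML (2.30 ± 0.57, adjusted p = 0.00545) than in MaSC/basal cells, and higher in LP than in ML cells by 1.93 ± 0.56 (adjusted p = 0.0256). Within batches the difference of LP from MaSC/basal was 3.88 in batch 1 and 5.06 with either MaSC/basal library of batch 2. Without LP replicate 2 it was 3.56, and the call between LP and ML cells was lost (1.26, adjusted p = 0.0972), as it was without ML replicate 1 or 3. Without ML replicate 2 the difference of LP from ML was 2.74 and that of ML from MaSC/basal was 1.49 (adjusted p = 0.0164).

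*Scd2*, in contrast, was at 132, 142 and 96.6 CPM in MaSC/basal, 59.8, 64.4 and 80.5 CPM in LP and 156, 153 and 181 CPM in ML libraries. All LP libraries lay below, and all ML libraries above, the other populations. It was lower in LP than in MaSC/basal (-0.86 ± 0.19, adjusted p = 0.00288) and ML cells (-1.26 ± 0.19, adjusted p = 0.00147), and its ML level against MaSC/basal did not pass (0.41 ± 0.18, adjusted p = 0.0829). Per kilobase of exon, *Scd1* was 0.63 to 0.92 of the level of *Scd2* in MaSC/basal, 9.39 to 46.2 times that level in LP and 1.29 to 5.40 times in ML libraries. These paralogs are similar in sequence, and how reads shared between them were counted is not given in the sources used here.

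*Fads1* and *Fads2*, the delta-5 and delta-6 desaturases of polyunsaturated fatty acids, were highest in LP cells. *Fads1* was at 171, 222 and 165 CPM in MaSC/basal, 367, 337 and 275 CPM in LP and 92.4, 198 and 57.3 CPM in ML libraries. *Fads2* was at 65.9, 75.2 and 73.1 CPM in MaSC/basal, 209.9, 169 and 147 CPM in LP and 53.6, 111 and 33.0 CPM in ML libraries. In both genes all LP libraries lay above all others, and ML replicate 2 was the highest of its population. They were higher in LP than in ML cells by 1.49 ± 0.37 (adjusted p = 0.0145) and 1.41 ± 0.36 (adjusted p = 0.0154). Without ML replicate 2 the differences were 2.12 and 2.02, and without ML replicate 1 both calls were lost (adjusted p = 0.0535 and 0.0556). Leaving out ML replicate 2 also made *Fads1* (-1.31, adjusted p = 0.00139), *Fads2* (-0.72, adjusted p = 0.0215) and *Acaca* (-0.92, adjusted p = 0.00710) pass as lower in ML than in MaSC/basal cells. Against MaSC/basal cells *Fads2* was higher in LP (1.30 ± 0.36, adjusted p = 0.0105), whereas *Fads1* was at 0.81 ± 0.37 with adjusted p = 0.0834, and at 1.16 with adjusted p = 0.0106 under the replicate block. The high values of ML replicate 2 for *Scd1*, *Fads1*, *Fads2*, *Acaca* and *Plin2* stood beside its higher sum of LP markers, and whether admixed LP cells contributed was not tested.

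**Figure D2:**
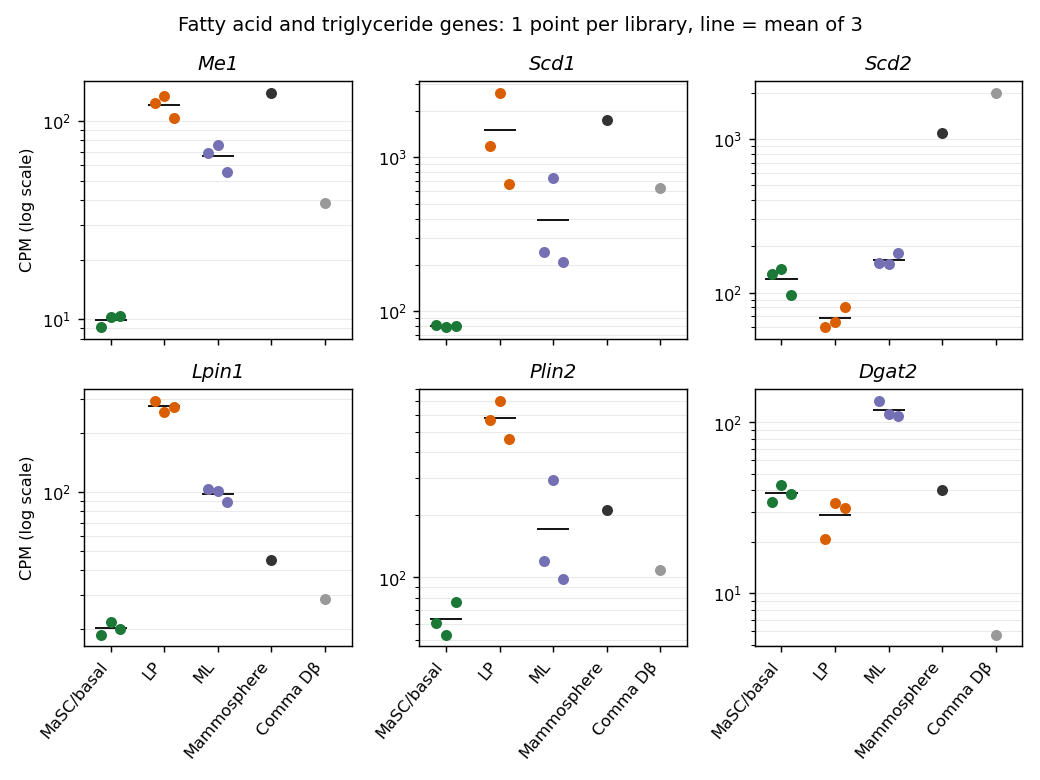
CPM on a log axis for *Me1*, *Scd1*, *Scd2*, *Lpin1*, *Plin2* and *Dgat2* in the 5 sample types, with 1 point per library and a line at the mean of the 3 sorted libraries. *Scd1* and *Plin2* show 1 ML library above the other 2, *Dgat2* is highest in ML cells, and *Scd2* is highest in the mammosphere and Comma Dβ libraries.

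The triglyceride genes divided between LP and ML cells. Of 6 tested, 2 were higher in LP and 4 in ML than in MaSC/basal cells (33.3% and 66.7%, against 28% and 29.7% of all genes). None was lower, against 29.4% and 28.9% of all genes, and the medians were 0.38 and 1.45. In LP against ML cells 3 (50%) were higher and 2 (33.3%) lower, against 14.3% and 17.5% of all genes. *Lpin1*, the phosphatidate phosphatase lipin, was at 18.7, 21.7 and 19.97 CPM in MaSC/basal, 294, 257 and 274 CPM in LP and 104, 101 and 89.5 CPM in ML libraries, with no overlap. It was 13.6-fold higher in LP (3.77 ± 0.13, adjusted p = 7.01e-08) and 4.88-fold higher in ML (2.29 ± 0.12, adjusted p = 3.89e-07) than in MaSC/basal cells, and LP exceeded ML cells by 1.48 ± 0.12 (adjusted p = 0.000701). *Plin2*, which coats lipid droplets, was at 60.3, 53.2 and 76.3 CPM in MaSC/basal, 571, 707 and 464 CPM in LP and 119.9, 293 and 98.8 CPM in ML libraries. The 3 populations did not overlap, and *Plin2* was 9.18-fold higher in LP (3.20 ± 0.40, adjusted p = 7.70e-05) and 2.70-fold higher in ML (1.43 ± 0.37, adjusted p = 0.00754) than in MaSC/basal cells. Between LP and ML cells it differed by 1.77 ± 0.38 (adjusted p = 0.00686), and without ML replicate 2 by 2.41, with ML then 0.79 above MaSC/basal cells.

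*Dgat2* and *Gpam* were instead highest in ML cells. *Dgat2*, which adds the last fatty acid to the triglyceride, was at 34.1, 42.9 and 38.4 CPM in MaSC/basal, 20.8, 33.7 and 31.6 CPM in LP and 134, 111 and 108 CPM in ML libraries. All ML libraries lay above all others. Its level in ML was 3.07-fold that in MaSC/basal (1.62 ± 0.19, adjusted p = 4.73e-05) and 4.11-fold that in LP cells (2.04 ± 0.19, adjusted p = 0.000701). *Gpam*, the acyltransferase of the first step, was at 40.9, 31.9 and 41.9 CPM in ML libraries, against 10.4 to 16.5 CPM in MaSC/basal and 16.4 to 19.1 CPM in LP libraries. It was 2.76-fold higher in ML than in MaSC/basal (1.47 ± 0.19, adjusted p = 9.83e-05) and 2.19-fold higher than in LP cells (1.13 ± 0.19, adjusted p = 0.00254). *Dgat1*, which does the same reaction as *Dgat2*, was at 30.1, 39.4 and 23.2 CPM in LP against 17.8 to 19.98 CPM in ML libraries (0.71 ± 0.19 higher in LP, adjusted p = 0.0187). The *Dgat1* call was lost without LP replicate 2 or ML replicate 1 or 3 (highest adjusted p = 0.0581), and with the replicate block *Dgat1* also passed in LP against MaSC/basal cells (0.55, adjusted p = 0.0157).

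*Cd36*, a fatty acid transporter, was at 36.3, 16.1 and 43.0 CPM in MaSC/basal, 3.88, 13.0 and 13.8 CPM in LP and 3.28, 14.3 and 23.9 CPM in ML libraries. It did not pass the test (-1.64 ± 0.67 in LP, adjusted p = 0.0594, and -1.21 ± 0.66 in ML, adjusted p = 0.143), but did with the replicate block (-2.17, adjusted p = 0.0133, and -1.89, adjusted p = 0.0269). *Cd36* is also expressed by capillary endothelium and adipocytes. The 5 endothelial markers (*Pecam1*, *Cdh5*, *Kdr*, *Tek* and *Emcn*) summed to 43.2 to 89.4 CPM in MaSC/basal, 10.5 to 25.7 CPM in LP and 7.27 to 37.4 CPM in ML libraries. Of these 5 markers, 4 (80%) were called lower in LP and 2 (40%) in ML than in MaSC/basal cells, against 29.4% and 28.9% of all genes. The 8 adipocyte markers summed to 30.9 to 69.9 CPM in MaSC/basal and 3.31 to 36.3 CPM in luminal libraries, most of it *Fabp4*, which endothelium shares. *Adipoq* did not exceed 0.58 CPM and *Plin1* did not exceed 0.54 CPM in any library. *Lep* was at 1.22 to 4.27 CPM in MaSC/basal and at most 0.11 CPM in luminal libraries, and *Cfd* reached 1.75 CPM in MaSC/basal replicate 1. Of the 2 adipocyte markers tested (*Fabp4* and *Lep*), 1 (50%) was called lower in LP and 1 (50%) in ML cells, against the same shares of all genes. The part of endothelial cells and adipocytes in the *Cd36* values was not tested.

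**Figure D3:**
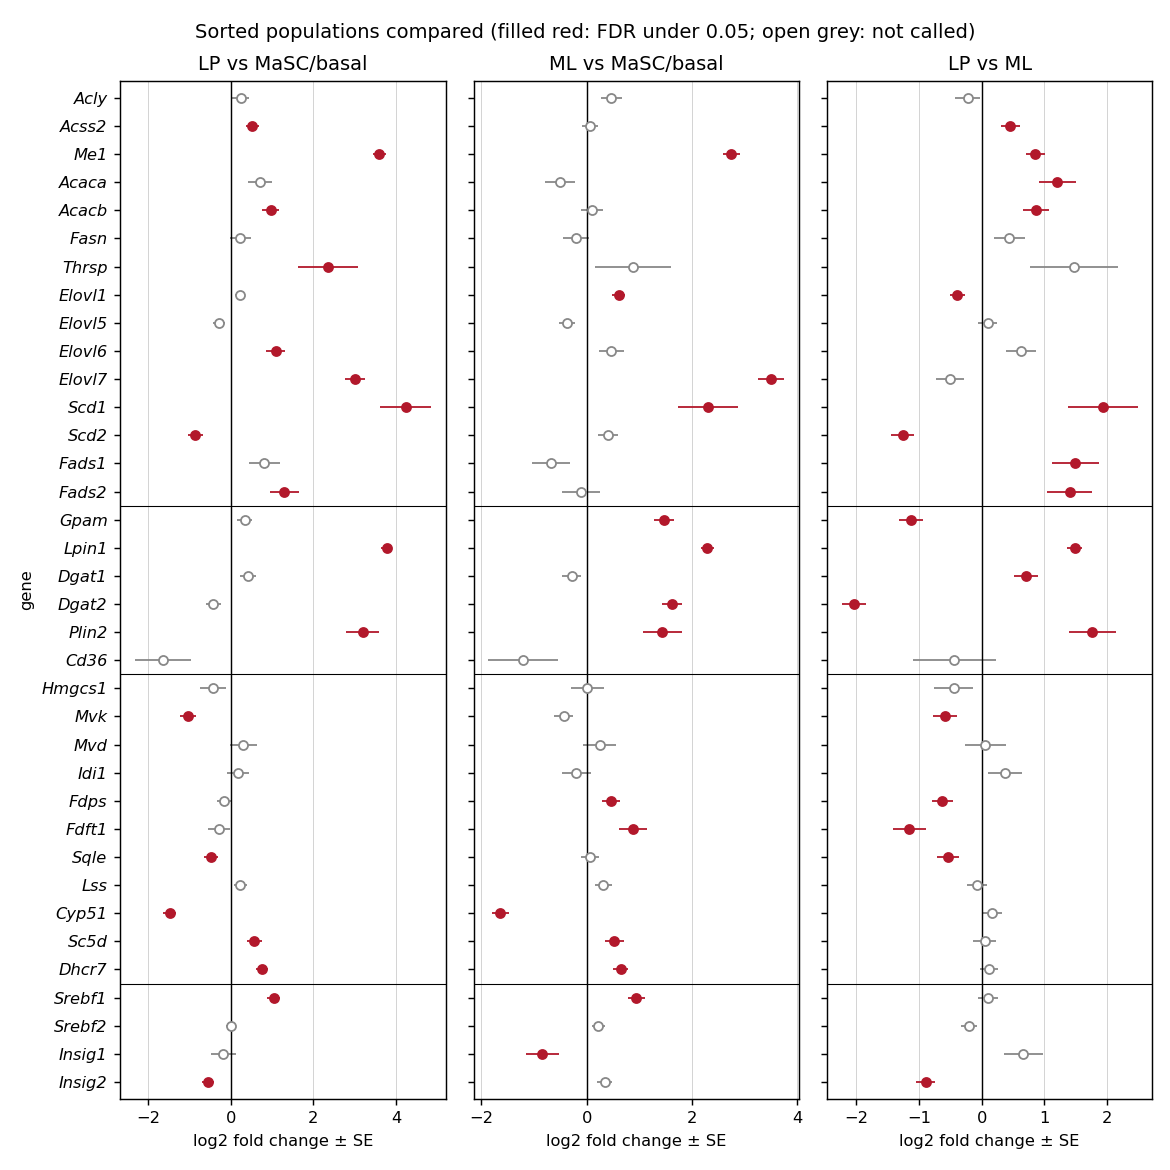
Log2 fold change with its SE for each of the 36 tested genes in LP against MaSC/basal, ML against MaSC/basal and LP against ML cells. Filled points passed FDR under 0.05, open points did not, and horizontal lines part the 4 branches. In the panel of LP against ML cells, *Scd1*, *Lpin1* and *Plin2* lie on the LP side and *Scd2*, *Gpam*, *Dgat2*, *Fdps* and *Fdft1* on the ML side.

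The sterol branch had no common direction among sorted cells. Of 11 enzymes, 2 (18.2%) were higher and 3 (27.3%) lower in LP than in MaSC/basal cells, against 28% and 29.4% of all genes. In ML cells 4 (36.4%) were higher and 1 (9.09%) lower, against 29.7% and 28.9% of all genes. The median log2 fold changes of the enzymes were -0.16 and 0.24. None of the 11 was higher in LP than in ML cells and 4 (36.4%) were lower, against 14.3% and 17.5% of all genes. The enzymes had a median of -0.08 there. The most basal of them was *Cyp51*, the lanosterol demethylase, at 246, 173 and 190.1 CPM in MaSC/basal, 70.5, 71.6 and 77.0 CPM in LP and 59.5, 63.0 and 72.8 CPM in ML libraries. All MaSC/basal libraries lay above all luminal libraries. The level was 2.78-fold lower in LP (-1.47 ± 0.15, adjusted p = 2.47e-05) and 3.12-fold lower in ML cells (-1.64 ± 0.16, adjusted p = 1.09e-05). Its exons share 166 bases with *Akap9* on the other strand. *Sc5d* and *Dhcr7*, which act later on the route, had the opposite sign. *Sc5d*, a sterol desaturase, was at 38.2, 26.4 and 36.2 CPM in MaSC/basal, 48.2 to 52.9 CPM in LP and 42.4 to 59.7 CPM in ML libraries. *Dhcr7*, the reductase of the final step to cholesterol, was at 9.29 to 12.3 CPM in MaSC/basal, 18.3 to 19.0 CPM in LP and 15.6 to 19.5 CPM in ML libraries. *Dhcr7* was higher in LP by 0.76 ± 0.15 (adjusted p = 0.00142) and in ML by 0.64 ± 0.15 (adjusted p = 0.00372). *Sc5d* was higher by 0.57 ± 0.18 (adjusted p = 0.0195) and 0.52 ± 0.18 (adjusted p = 0.0280), calls lost without MaSC/basal replicate 2 (0.44 and 0.37), in LP also without LP replicate 3 (0.53) or without TMM scaling (0.42, adjusted p = 0.0894), and in ML also without ML replicate 3 (0.34) or with the replicate block (0.39, adjusted p = 0.0737).

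Of the enzymes of the set that precede *Cyp51*, *Mvk*, *Fdps*, *Fdft1* and *Sqle* passed the test as lower in LP than in ML cells. *Mvk*, mevalonate kinase, was at 12.7, 13.1 and 9.20 CPM in MaSC/basal, 6.21, 5.52 and 5.50 CPM in LP and 10.2, 7.72 and 7.88 CPM in ML libraries. It was 2.04-fold lower in LP than in MaSC/basal cells (-1.03 ± 0.19, adjusted p = 0.00106), and its LP libraries lay below every other sorted library. *Fdft1*, squalene synthase, was at 68.3, 41.9 and 74.7 CPM in ML libraries, against 27.6 to 39.3 CPM in MaSC/basal and 20.3 to 36.5 CPM in LP libraries. It was higher in ML than in LP cells by 1.16 ± 0.26 (adjusted p = 0.00951) and than in MaSC/basal cells by 0.88 ± 0.26 (adjusted p = 0.0151), the latter call being lost without ML replicate 1 (0.79) or 3 (0.72) or MaSC/basal replicate 2 (0.75). *Fdft1* shares 774 bases of exon with *Ctsb*, a cathepsin gene on the other strand. *Fdps*, which makes farnesyl pyrophosphate, was at 10.1 to 11.8 CPM in ML, 6.03 to 7.96 CPM in LP and 6.67 to 8.75 CPM in MaSC/basal libraries. Its call in ML against LP cells (0.63 ± 0.17, adjusted p = 0.0197) was lost without LP replicate 1 or 2 or ML replicate 2, and that against MaSC/basal cells (0.46 ± 0.17, adjusted p = 0.0355) was lost with the replicate block (0.44, adjusted p = 0.0598) and without any of 6 single libraries (highest adjusted p = 0.111).

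*Sqle*, squalene epoxidase, was at 129, 86.0 and 110.0 CPM in MaSC/basal, 69.2, 73.7 and 91.3 CPM in LP and 106, 106 and 128 CPM in ML libraries. It passed narrowly as lower in LP than in MaSC/basal (-0.47 ± 0.18, adjusted p = 0.0405) and ML cells (-0.54 ± 0.18, adjusted p = 0.0413). Leaving out any of 5 libraries ended the former call (highest adjusted p = 0.162) and any of 6 the latter (highest adjusted p = 0.145). *Hmgcs1*, the first enzyme of the route and the one with the SRE letters, was at 152, 105 and 90.1 CPM in MaSC/basal, 80.3, 71.8 and 104 CPM in LP and 86.9, 82.2 and 180.1 CPM in ML libraries. Its populations overlapped and no difference passed, except in LP against MaSC/basal with the replicate block (-0.73, adjusted p = 0.0103). The highest of its ML values was in replicate 3, the ML library with most of the basal markers. That value lay above all MaSC/basal libraries too, and what raised it was not tested. *Mvd* (8.92 to 21.1 CPM over the sorted libraries), *Idi1* (4.70 to 10.2 CPM) and *Lss* (14.6 to 24.4 CPM), which encode a decarboxylase, an isomerase and lanosterol synthase, passed no test in the fit without a block. With the block, *Mvd* passed as higher in LP (0.50, adjusted p = 0.0445) and ML (0.50, adjusted p = 0.0488) and *Fdft1* as lower in LP than in MaSC/basal cells (-0.57, adjusted p = 0.00893).

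Between LP and ML cells, *Acss2* (0.46 ± 0.15, adjusted p = 0.0393), *Elovl1* (-0.39 ± 0.12, adjusted p = 0.0364) and *Mvk* (-0.58 ± 0.19, adjusted p = 0.0404) also passed, and each of these calls was lost without any 1 of at least 7 libraries (highest adjusted p = 0.130, 0.141 and 0.175).

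The MaSC/basal libraries themselves differed in this branch. Relative to their mean, the median sterol enzyme was at 0.24 on the log2 scale in replicate 1 and at -0.21 in both replicates 2 and 3. Replicate 1 is of batch 1 and carries the p53 name, and these cannot be told apart as sources. Without it, *Cyp51* was still lower in LP (-1.31, adjusted p = 8.56e-05) and ML cells (-1.48, adjusted p = 4.10e-05).

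In Comma Dβ cells 10 of 11 sterol enzymes (90.9%) were over 2-fold above the MaSC/basal mean, against 16.9% of all genes. In both cultures *Scd1* and *Scd2* were far above their MaSC/basal levels. Each culture is 1 library without replicate, so differences were described by size (over 2-fold from the mean of the 3 MaSC/basal libraries) with no test, and both cultures were set against the same 3 libraries. In Comma Dβ cells 19 of 36 genes (52.8%) were higher by over 2-fold and 3 (8.33%) lower, where 16.9% and 24.8% of all genes were. In mammospheres 14 (38.9%) were higher and 2 (5.56%) lower, against 19.7% and 20% of all genes. The median difference of the 36 genes was 1.08 in Comma Dβ and 0.56 in mammospheres on the log2 scale, and that of all genes was 0.02 and -0.01. Without TMM scaling the median of all genes itself shifted to 0.31 and 0.22, and 24 and 16 of the 36 genes were higher by over 2-fold.

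All 11 sterol enzymes lay above all 9 sorted libraries in Comma Dβ cells, a position that was not counted for all genes. By over 2-fold, 10 of the 11 (90.9%) were higher than in MaSC/basal cells, against 16.9% of all genes. The median log2 difference of the 11 was 1.88. *Dhcr7* was at 101 CPM, 9.26-fold the mean of MaSC/basal libraries. *Fdps* was at 67.4 CPM (8.60-fold), *Lss* at 114 CPM (6.37-fold) and *Mvk* at 73.6 CPM (6.29-fold). *Mvd* (53.3 CPM), *Idi1* (27.3 CPM), *Sqle* (351 CPM), *Hmgcs1* (336 CPM), *Fdft1* (95.8 CPM) and *Sc5d* (84.0 CPM) were 2.50-fold to 4.03-fold higher. The exception to the rule of size was *Cyp51*, at 382 CPM against 173 to 246 CPM in MaSC/basal libraries (1.88-fold). *Insig1*, itself a target of SREBP, was at 117 CPM in Comma Dβ and 15.3 to 53.5 CPM in the sorted libraries.

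In mammospheres 6 of the 11 sterol enzymes lay above all 9 sorted libraries and the other 5 within them, with a median log2 difference of 0.83. How many of all genes lay above the sorted libraries was not counted. By over 2-fold, 4 of the 11 (36.4%) were higher than in MaSC/basal cells, against 19.7% of all genes. *Dhcr7* was at 43.3 CPM (3.96-fold the MaSC/basal mean), *Lss* at 46.2 CPM (2.58-fold), *Fdps* at 19.2 CPM (2.45-fold) and *Sc5d* at 68.5 CPM (2.04-fold). Against the MaSC/basal library of its own batch the log2 difference of *Sc5d* was 0.84, no longer over 2-fold. *Sqle* (107 CPM), *Mvd* (14.9 CPM) and *Mvk* (13.4 CPM) were within 1.14-fold of the MaSC/basal mean, and *Cyp51* was at 144 CPM, below all MaSC/basal and above all luminal libraries.

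**Figure D4:**
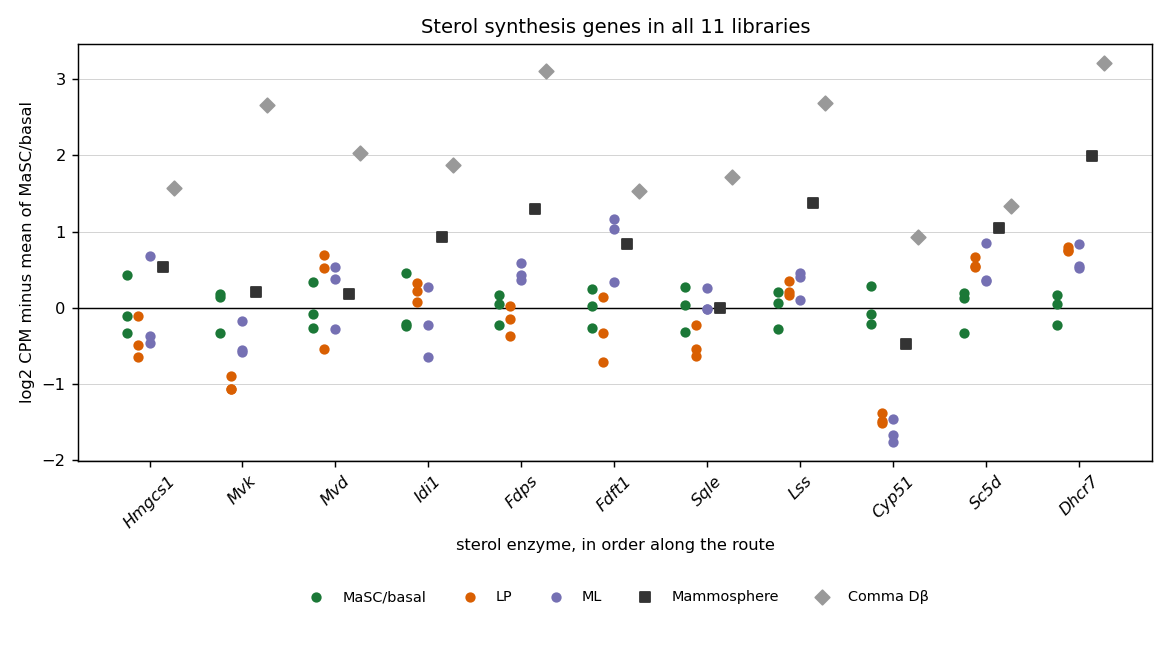
Log2 CPM of the 11 sterol enzymes, in order along the route, relative to the mean of the 3 MaSC/basal libraries. Circles are sorted libraries, squares the mammosphere and diamonds the Comma Dβ library. The diamonds are the highest point for every enzyme, and *Cyp51* alone has all luminal circles more than 1 unit below the MaSC/basal mean.

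*Scd1* and *Scd2* were both higher in culture than in MaSC/basal cells. *Scd2* was at 1098 CPM in mammospheres (8.90-fold the MaSC/basal mean) and 2013 CPM in Comma Dβ cells (16.3-fold), above all 9 sorted libraries (59.8 to 181 CPM) in both. *Scd1* was at 1760.1 CPM in mammospheres (22.1-fold) and 634 CPM in Comma Dβ (7.95-fold), within the range of the luminal libraries. Per kilobase, *Scd1* was thus 1.81 times the level of *Scd2* in mammospheres and 0.35 of it in Comma Dβ, the lowest such ratio among the 11 libraries. Mammospheres also had high levels of *Me1* (139 CPM, 13.95-fold) and *Elovl7* (89.2 CPM, 14.7-fold), both above all sorted libraries, whereas *Fads1* (87.1 CPM) and *Fads2* (43.6 CPM) were below the MaSC/basal libraries, *Fads1* by over 2-fold (-1.08) but not against the library of its own batch (-0.97). Comma Dβ cells had the highest *Fasn* (909.8 CPM, 2.49-fold), *Acly* (449 CPM, 2.04-fold) and *Elovl6* (181 CPM, 8.14-fold) of all libraries, with *Me1* (38.6 CPM) and *Elovl7* (12.7 CPM) between MaSC/basal and luminal libraries. *Thrsp* was at 0.07 CPM in Comma Dβ, which is 2 reads, and at 1.04 CPM in mammospheres. Against the MaSC/basal library of its own batch the mammosphere difference in *Thrsp* was 0.36 and no longer over 2-fold.

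In Comma Dβ none of 6 triglyceride genes was higher than in MaSC/basal by over 2-fold and 2 (33.3%) were lower, against 16.9% and 24.8% of all genes. *Dgat2* was at 5.72 CPM, below all sorted libraries and 6.73-fold below the MaSC/basal mean. *Cd36* was at 0.54 CPM, where the 5 endothelial markers summed to 0.99 CPM. In mammospheres *Plin2* (210.2 CPM, 3.32-fold) and *Lpin1* (44.9 CPM, 2.23-fold) were higher, both below all LP libraries, *Cd36* was lower (3.34 CPM), and *Gpam* (20.8 CPM), *Dgat1* (24.4 CPM) and *Dgat2* (39.96 CPM) were within 1.5-fold of the MaSC/basal mean. The summed fibroblast markers (*Pdgfra*, *Col1a1*, *Col1a2*, *Dcn* and *Lum*) were at 2045 CPM in Comma Dβ and 1730.4 CPM in mammospheres against 187 to 768 CPM in the sorted libraries. Most of it was *Col1a1* (809 and 838 CPM) and *Col1a2* (1019 and 686 CPM). By over 2-fold from MaSC/basal, 3 of the 5 were higher and 2 lower in Comma Dβ (*Dcn* at 91.5 CPM, *Lum* at 0.68 CPM). In mammospheres 4 were higher and none lower, with *Dcn* at 98.6 CPM. The part of fibroblasts in the culture values was not tested.

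The regulators differed by gene rather than as a group. *Srebf1*, whose main product favours the fatty acid genes, was at 143, 157 and 124 CPM in MaSC/basal, 318, 239.6 and 313 CPM in LP and 285, 243 and 284 CPM in ML libraries. All luminal libraries lay above all MaSC/basal libraries, and the level was 2.05-fold higher in LP (1.04 ± 0.16, adjusted p = 0.000314) and 1.92-fold higher in ML cells (0.94 ± 0.16, adjusted p = 0.000555). LP and ML cells were not told apart (0.10 ± 0.16, adjusted p = 0.663). *Srebf1* shares 109 bases of exon with *Rai1* on the other strand. *Srebf2*, whose product favours the sterol genes, was nearly level at 289.8 to 380.0 CPM over the 9 sorted libraries, with log2 differences of 0.01 ± 0.13 in LP and 0.22 ± 0.13 in ML cells that did not pass. It was at 177 CPM in mammospheres, below all sorted libraries, and at 418 CPM in Comma Dβ, above all of them.

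*Insig2* was lowest in LP cells, at 25.3, 24.7 and 27.9 CPM, against 34.6, 42.3 and 37.2 CPM in MaSC/basal and 49.0, 39.8 and 55.6 CPM in ML libraries. It was lower in LP than in MaSC/basal (-0.55 ± 0.15, adjusted p = 0.00914) and ML cells (-0.89 ± 0.15, adjusted p = 0.00238). *Insig1* was at 53.5, 24.7 and 24.4 CPM in MaSC/basal, 38.0, 25.1 and 27.4 CPM in LP and 21.0, 15.3 and 20.9 CPM in ML libraries. It was called lower in ML than in MaSC/basal cells (-0.84 ± 0.31, adjusted p = 0.0375), which was lost without MaSC/basal replicate 1 (-0.36, adjusted p = 0.181) or any 1 ML library (highest adjusted p = 0.109), and with the replicate block it also passed as higher in LP than in ML cells (0.65, adjusted p = 0.0178). The cultures differed in which Insig gene they raised. *Insig2* was at 131 CPM in mammospheres (3.45-fold the MaSC/basal mean) and 35.9 CPM in Comma Dβ, and *Insig1* at 33.9 CPM and 117 CPM. Per kilobase, *Insig1* was 0.25 of the level of *Insig2* in mammospheres and 3.11 times that level in Comma Dβ, against 0.36 to 1.48 in the sorted libraries.

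**Figure D5:**
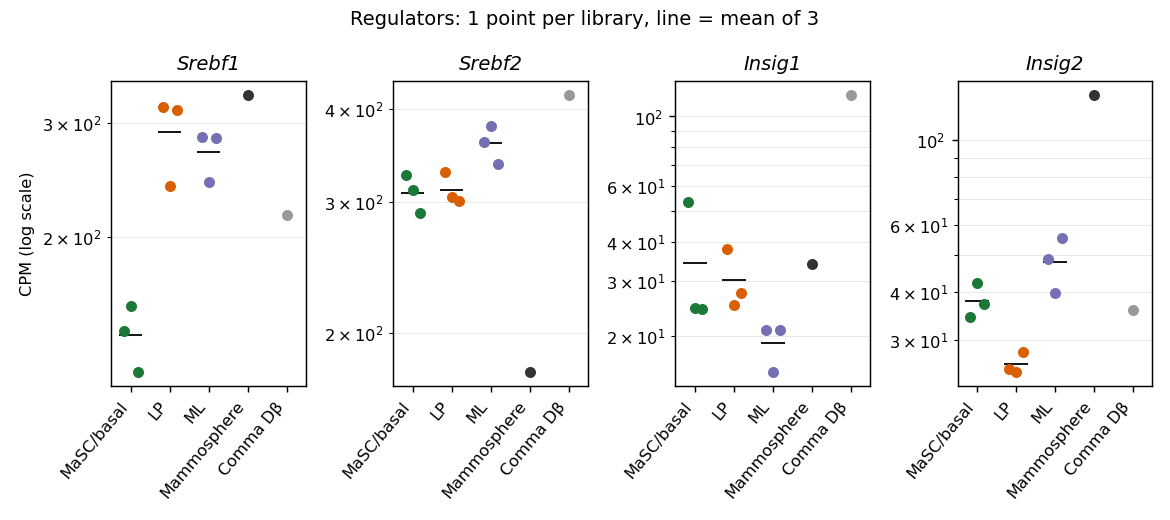
CPM on a log axis for the 4 regulators in the 5 sample types, with 1 point per library and a line at the mean of the 3 sorted libraries. *Srebf1* is higher in all 6 luminal libraries than in the 3 MaSC/basal libraries, *Srebf2* is nearly level among them, and the mammosphere and Comma Dβ libraries lie apart in opposite Insig genes.

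Further genes of lipid handling were counted in the same way. Their lists were drawn up by function but with earlier results of these data known, so their shares are no independent check. Of 21 tested genes of triglyceride handling and lipid droplets outside the set, 12 (57.1%) were higher and 2 (9.52%) lower in LP than in MaSC/basal cells, and 15 (71.4%) were higher and 3 (14.3%) lower in ML cells, where over all genes 28% and 29.4% passed in LP and 29.7% and 28.9% in ML cells. *Btn1a1*, butyrophilin, a protein of the milk fat globule membrane, was at 13.3 to 21.9 CPM in MaSC/basal, 2005 to 2896 CPM in LP and 173 to 640.2 CPM in ML libraries, 153-fold higher in LP than in MaSC/basal cells (7.26 ± 0.55, adjusted p = 2.93e-06). Of 18 further fatty acid genes, 9 (50%) were higher and 5 (27.8%) lower in LP, and 7 (38.9%) higher and 6 (33.3%) lower in ML, than in MaSC/basal cells. The furthest apart in LP against MaSC/basal cells were *Acss1* and *Elovl4*. *Acss1*, a mitochondrial acetyl-CoA synthetase, was at 41.9 to 58.6 CPM in LP and 1.90 to 2.11 CPM in MaSC/basal libraries. *Elovl4*, an elongase of very long chains, was at 0.60 to 1.87 CPM in LP and 52.8 to 81.9 CPM in MaSC/basal libraries. In ML against MaSC/basal cells the furthest apart were *Fads6* (47.2-fold higher, 5.56 ± 0.54, adjusted p = 1.32e-05) and again *Elovl4* (52.5-fold lower). *Elovl4* was at 299 CPM in mammospheres, above all sorted libraries, and at 10.4 CPM in Comma Dβ.

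Of 11 further sterol enzymes, 1 (9.09%) was higher and 2 (18.2%) lower in LP, and 3 (27.3%) were higher and 4 (36.4%) lower in ML, than in MaSC/basal cells. The shares of all genes were 28% and 29.4% in LP and 29.7% and 28.9% in ML cells. In Comma Dβ 6 (54.5%) of these 11 were over 2-fold above MaSC/basal cells, against 16.9% of all genes, and none was lower, with a median log2 difference of 1.20.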

How the data were processed

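RNA-seq data of 11 libraries were used. After alignment to mm10 (Rsubread), the authors summarized reads per Entrez gene by featureCounts and deposited the raw counts, neither normalized nor filtered. How reads mapping to several genes were handled is not given in the sources used here. The kit is not described as stranded, so overlapping genes can share reads. Analysis used edgeR 4.0.16 under R 4.3.3. Genes over 0.5 CPM in at least 3 libraries (15422) were kept, TMM factors computed, and the 5 sample types fitted jointly over all libraries by quasi-likelihood, with Benjamini-Hochberg adjustment. Each SE was worked back from the test of its log2 fold change, as the absolute change over root F, where F is the test statistic. It is not a separate estimate made by the fit. CPM are TMM-scaled, and a prior count of 2 was used for log2 CPM. Symbols were matched to RefSeq for 25275 genes, and 1904 have none.

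The 37 genes and all lists were chosen with earlier results of these data known. Every one of the 37 is reported. Of the other lists, the called genes that differed most in size, up and down, were named where given, and some genes of these lists are not reported here. Labels give the batch, which was used as the replicate block although it pairs libraries only in part. MaSC/basal replicates 2 and 3 are both of batch 2, and batch 3 has no MaSC/basal library. Deviations of libraries from their group means correlated with a median r of 0.24 in 9 same-batch pairs and -0.10 in 18 others. The ranges overlapped (-0.12 to 0.53 and -0.42 to 0.11), and MaSC/basal replicate 2 was at -0.12 and 0.02 with LP and ML replicate 2 of its batch. Deviations cancel within a group, so the medians are not independent of each other. Alternatives were limma voom (limma 3.58.1), DESeq2 1.42.0, DESeq2 size factors, no TMM, other filters and prior count, the 9 sorted libraries alone, a batch block, and leaving out each library. The fits were tried on simulated counts with large changes in well-expressed genes, 1 common dispersion and no batch effect. This does not measure how they do on small changes or uneven replicates. An exact permutation test of 3 against 3 libraries cannot go below 0.1 and was not used. Read depth limits low values, and counting error is the least error they carry. Microarray, screen and qRT-PCR data were not analysed here.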

Additional observations from a re-analysis of the deposited data

How the results depend on the processing

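No called gene changed sign under any alternative run (DESeq2 Wald test, DESeq2 size factors, limma voom, no TMM, no filter, over 1 CPM in 3 libraries, the 9 sorted libraries alone, the batch block, and each library left out). Counts that moved by over 1.5 times were those lower than in MaSC/basal cells, namely 8 in LP with the replicate block and 8 without TMM (5 otherwise), and 4 in ML with the replicate block and 4 by DESeq2 (2 otherwise). In mammospheres 1 gene rather than 2 was over 2-fold lower against the same-batch MaSC/basal library or without TMM. With single libraries left out, genes higher in LP than ML cells numbered 4 (without ML replicate 1) to 10, those higher in ML than LP cells 5 (without LP replicate 1 or 2) to 9, those lower in ML than in MaSC/basal cells 1 (without ML replicate 3) to 5 (without ML replicate 2), and those lower in mammospheres 1 (without MaSC/basal replicate 2) to 3. Without TMM the median of all genes moved from 0.01 to -0.14 in LP against MaSC/basal and from -0.01 to -0.19 in LP against ML cells.

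Signs changed only for genes that were not called. In LP against ML cells without TMM these were *Cyp51* (-0.0057), *Dhcr7* (-0.049), *Elovl5* (-0.071), *Mvd* (-0.12), *Sc5d* (-0.13) and *Srebf1* (-0.072). In LP against MaSC/basal cells *Srebf2* was at -0.14 without TMM and -0.020 in the sorted libraries alone. In ML against MaSC/basal cells *Hmgcs1* was at -0.039 in the sorted libraries alone, -0.0081 by DESeq2, -0.0090 with its size factors, -0.049 by voom and -0.37 with the replicate block, which also turned *Fads2* (0.078) and *Sqle* (-0.059). With single libraries left out, values in ML against MaSC/basal ran from -0.010 to 0.18 in *Acacb*, -0.023 to 0.15 in *Acss2*, -0.72 to 0.21 in *Fads2*, -0.45 to 0.26 in *Hmgcs1*, -0.46 to 0.072 in *Idi1*, -0.084 to 0.21 in *Sqle* and -0.50 to 1.60 in *Thrsp*. In LP against MaSC/basal they ran from -0.0071 to 0.42 in *Fasn*, -0.37 to 0.30 in *Insig1* and -0.022 to 0.054 in *Srebf2*. In LP against ML they ran from -0.88 to 0.20 in *Cd36*, -0.64 to 0.015 in *Hmgcs1*, -0.15 to 0.36 in *Mvd* and -0.039 to 0.23 in *Sc5d*. The causes were not tested. Whichever single library was left out, 15 of 18 genes called in LP against MaSC/basal, 11 of 15 in ML against MaSC/basal and 9 of 19 in LP against ML cells kept their calls, and the replicate block changed no call of the 36 genes but those given with the results.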

Other observations

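Of 12 genes of sterol uptake, transport and efflux, 7 (58.3%) were lower and 3 (25%) higher in ML than in MaSC/basal cells, and 4 (33.3%) were lower and 2 (16.7%) higher in LP cells. Over all genes 28.9% were lower and 29.7% higher in ML, and 29.4% lower and 28% higher in LP cells. *Apoe*, the apolipoprotein that carries sterol between cells, was at 2909 to 3030 CPM in MaSC/basal, 231 to 289 CPM in LP and 67.3 to 149 CPM in ML libraries, 11.6-fold lower in LP (-3.54 ± 0.28, adjusted p = 4.34e-06) and 26.1-fold lower in ML cells (-4.71 ± 0.30, adjusted p = 8.79e-07). *Abcg1*, a sterol exporter, was at 2.92 to 5.03 CPM in MaSC/basal, 14.6 to 22.8 CPM in LP and 46.3 to 77.6 CPM in ML libraries, and 14.4-fold higher in ML than in MaSC/basal cells (3.85 ± 0.29, adjusted p = 2.49e-06). *Soat1*, which esterifies cholesterol for storage, was at 3.14 to 9.55 CPM in LP against 29.9 to 36.5 CPM in ML libraries (-2.14 ± 0.36, adjusted p = 0.00243). In Comma Dβ cells *Apoe* was at 7.32 CPM and *Abcg1* at 0.61 CPM, both below all sorted libraries.

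Of 12 other lipid regulators, 6 (50%) were higher and 2 (16.7%) lower in LP, and 8 (66.7%) higher and 2 (16.7%) lower in ML, than in MaSC/basal cells. The shares of all genes were 28% and 29.4% in LP and 29.7% and 28.9% in ML cells. *Pparg*, a nuclear receptor of fat storage, was at 3.53 to 6.20 CPM in LP against 1.18 to 1.70 CPM in MaSC/basal libraries (1.75 ± 0.32, adjusted p = 0.000927), and *Ppara*, its relative in fat burning, was at 0.85 to 1.39 CPM against 3.13 to 7.93 CPM (-2.16 ± 0.40, adjusted p = 0.00106). *Nr1h3*, the oxysterol receptor LXR alpha, was higher in ML than in MaSC/basal cells by 1.74 ± 0.22 (adjusted p = 8.00e-05), as *Mlxipl*, the carbohydrate-responsive factor, was in LP against ML cells (1.55 ± 0.26, adjusted p = 0.00238). Of 12 genes of fatty acid oxidation, 5 (41.7%) were higher and 3 (25%) lower in LP, and 6 (50%) higher and 3 (25%) lower in ML, than in MaSC/basal cells, the lower shares being near those of all genes. In Comma Dβ 7 of these 12 (58.3%) were over 2-fold lower than in MaSC/basal cells, against 24.8% of all genes, and 1 higher. In mammospheres 5 (41.7%) were lower, against 20% of all genes, and 1 higher. The higher one was *Cpt2*, which returns acyl groups to CoA in mitochondria, at 18.4 CPM in Comma Dβ and 15.1 CPM in mammospheres against 4.64 to 6.34 CPM in MaSC/basal libraries.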
